A study of Mus musculus with 8 samples.

Results

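Ago enrichment in undifferentiated mouse ES cells was examined as the log2 ratio (E) of RNA recovered with Argonaute (Ago) to total RNA, for every gene that both ES arrays measured. A gene was included when Feature Extraction, the scanner's software, called at least 1 of its probes well above background in most usable spots of each of the 2 arrays. This held for 22458 of 36163 gene names (62.1%), through 30751 of 55681 probes. Both arrays were hybridized with RNA from E14Tg2A, a mouse ES cell line of the 129/Ola strain without transgene or treatment, grown on gelatin with serum and LIF and collected at 0 days in vitro. The Ago–RNA array received RNA from the cytosolic fraction, immunoprecipitated with the anti-pan Ago antibody 2A8, and the total RNA array received total RNA of the same line. According to the labels, each array carried RNA pooled from 3 independent experiments, so that there was 1 array a side, no replicate and no test. The other 6 arrays of the series, from later stages of neural differentiation, were used to set the common intensity scale.

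Ago proteins are the core of the RNA-induced silencing complex. Each binds a miRNA, and the bases at positions 2 to 8 of that miRNA, its seed, pair with matching sites that lie mostly in the 3′ UTR of mRNAs, which are then translated less or degraded. Mouse ES cells are known for the miR-290 and miR-302 clusters, whose main products share a seed, and for the miR-17 family, whose seed is the same word shifted by 1 base. The mature sequences of 6 miRNAs whose sites were counted here are given because the seed, in capitals, sets the word searched for in 3′ UTRs. They are RefSeq sequences, written 5′ to 3′, and were placed by exact match in mm9, the build of the array annotation. The first 3 share a seed.
miR-291a-3p (chr7:3218969-3218990, plus strand): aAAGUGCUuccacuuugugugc
miR-294-3p (chr7:3220692-3220713, plus strand): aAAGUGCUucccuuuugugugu
miR-302b-3p (chr3:127248193-127248215, plus strand): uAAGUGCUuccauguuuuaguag
miR-17-5p (chr14:115442906-115442928, plus strand): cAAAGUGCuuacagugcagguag
miR-92a-3p (chr14:115443698-115443718, plus strand): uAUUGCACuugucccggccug
let-7a-5p (chr13:48633608-48633629, minus strand): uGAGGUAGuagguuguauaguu

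The labelled cell type was borne out by its own markers, although markers of other cells were detected as well. All 11 listed ES cell markers passed on both arrays, with normalized log2 intensities in total RNA between 12.51 and 18.38. Of the defining markers of primitive endoderm, 5 of 6 passed, at 7.01 to 7.66, and Gata6 did not. For trophectoderm 3 of 4 passed, at 7.04 to 8.60, without Elf5. For fibroblasts 4 of 6 passed, without Postn and Dcn, and their brightest member was Thy1 at 12.42. All 5 listed neural markers passed, with a median of 8.32, and the brightest of them lay above the lowest ES cell marker. Primed epiblast genes were bright in part, with Otx2 at 15.53 and Pou3f1 at 14.65, while Mixl1 and Cer1 did not pass. Summed over each list, log2 intensities in Ago–RNA and total RNA were 19.49 and 19.32 for the ES cell markers, 16.57 and 16.24 for primed epiblast, 15.25 and 14.05 for neural, 12.09 and 12.68 for fibroblast, 10.14 and 9.54 for trophectoderm and 10.31 and 9.69 for primitive endoderm markers. The part that other cells took in E was not tested. The ES Ago–RNA array stood apart from the others. The upper quartile of its mean spot signal was 3039, against 1235 on the ES total RNA array, while its spike-in spots were dimmer. The quantile normalization, from which control spots were left out, removes the difference in overall signal but not that of the spike-in spots, so E is a ratio relative to the bulk of the RNAs and not an amount bound. Scaled by the spike-in spots in its place, the median E of all genes was 2.66, and all directions given here are relative to the other RNAs.

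Most genes had similar intensities in Ago–RNA and in total RNA. The median E was 0.04 with quartiles of -0.47 and 0.51, and 17435 genes (77.6%) lay within 2-fold. E was 1 or higher for 2421 genes, or 10.8% of those measured, and -1 or lower for 2602 genes, or 11.6%. It was 2 or higher for 186 genes (0.828%) and -2 or lower for 481 genes (2.14%), so that the large differences were more often on the depleted side. Noise between spots was small beside these values. For the 290 probes that were printed in 10 spots and passed on both arrays, the median SD of E between spots was 0.07. Different probes of a gene varied more, with a median SD of 0.25 over the 5762 genes with several passing probes. Of the 1253 such genes whose mean E was past 1 in either direction, 1221 had every probe on the same side of 0. In 28 genes 1 probe was at 1 or higher and another at -1 or lower.

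**Figure D1:**
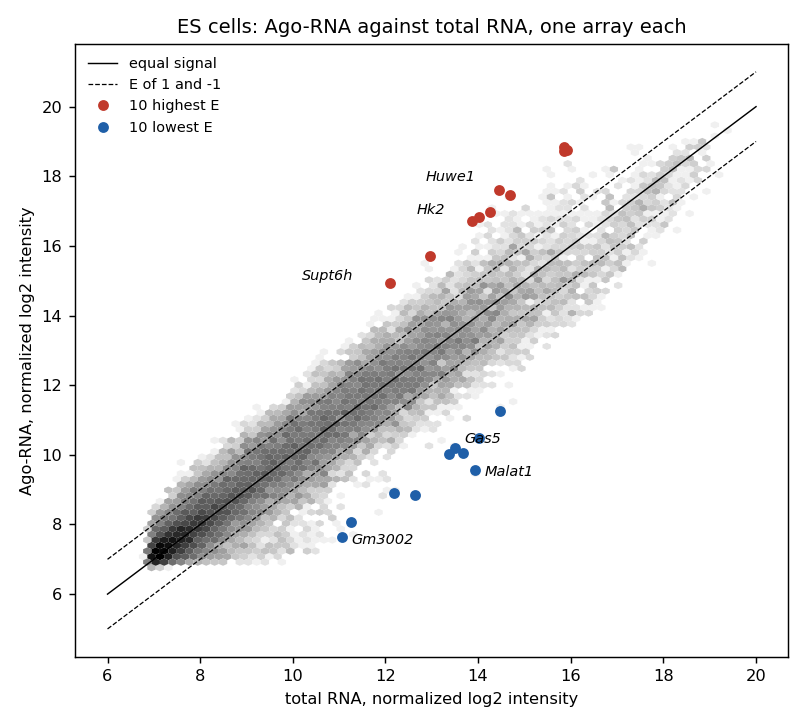
Normalized log2 intensity of each gene in Ago–RNA (vertical axis) against total RNA (horizontal axis) in ES cells, 1 array each, with darker cells holding more genes. The 10 RefSeq genes with the highest E (red), from Polr2b at 2.74 to Huwe1 at 3.16, and the 10 with the lowest (blue), from Rprl2 at -3.19 to Malat1 at -4.39, lie outside the dashed lines of E of 1 and -1.

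The highest enrichment among RefSeq genes was that of Huwe1, a giant HECT ubiquitin ligase (mm9, chromosome X, 148235350 to 148369960), with log2 intensities of 17.62 in Ago–RNA and 14.46 in total RNA. Its E of 3.16 was measured by 1 probe in the 3′ UTR and corresponded to 8.92-fold more signal in Ago–RNA. High values were also those of the nucleosome remodeler gene Chd4 with 18.72 in Ago–RNA and 15.86 in total RNA, and of Hk2, the hexokinase that starts glycolysis, with 16.73 and 13.87. Supt6h, a transcription elongation factor, was measured by 2 probes with E of 2.58 in the coding sequence and 3.09 in the 3′ UTR. Prrc2b had E of 2.82, the spectrin gene Spna2 2.76 (2.63 and 2.88 at its 2 probes), the non-muscle myosin gene Myh9 2.75 and the RNA polymerase II subunit gene Polr2b 2.74. All of these encode proteins, and most of them large ones.

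The 10 lowest RefSeq genes were all noncoding RNAs by their RefSeq record, although GENCODE lists Gm3002 as coding. Malat1, an abundant RNA of nuclear speckles (chromosome 19, 5795690 to 5802671), had 9.55 in Ago–RNA and 13.94 in total RNA, an E of -4.39 or 21.0-fold less signal. It was followed by the small nucleolar RNA Snora74a at -3.80. Next in the list came LOC100303645 at -3.62, 2700023E23Rik at -3.52, Gm3002 at -3.43, the U3 RNA gene Rnu3b1 at -3.34, the snoRNA host gene Gas5 at -3.32, Rmrp, the RNA of RNase MRP, at -3.28, Mirg, a miRNA-containing gene, at -3.21, and the RNase P RNA-like Rprl2 at -3.19. Both probes of Mirg were depleted, with E of -4.32 and -2.10, and so were the 3 probes of Gas5, between -4.22 and -2.28. Since the immunoprecipitation began from the cytosolic fraction, exclusion of nuclear RNA and absence from Ago cannot be told apart on these arrays.

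LOC100303645 lies on the miR-290 cluster, which was seen after its value was known. Its 2 probes, at chr7:3220581-3220640 and chr7:3220957-3221016 in mm9, flank the positions of miR-294-3p and miR-295-3p. Their E was -3.95, with 8.85 in Ago–RNA and 12.79 in total RNA, and -3.28, with 11.26 and 14.55. Probes within 2000 bases of the other ES cell miRNAs were therefore looked up. A forward strand probe just downstream of the miR-17 cluster (chr14:115445649-115445708) had 9.86 in Ago–RNA and 12.63 in total RNA, an E of -2.76. Upstream of the cluster, passing forward probes had -0.52 and -1.16, and 2 probes labelled as reverse strand had -3.36 and -2.99. Beside miR-106a, 2 passing probes of the reverse strand, on which that miRNA is encoded, had E of -2.28 and -2.27, while the 3 passing forward strand probes lay between -0.37 and 0.21. Around miR-302 no probe lay within this distance. The strand labels of these intervals could not be checked. The mRNA of Mcm7, which carries miR-93 in an intron, had 18.62 in Ago–RNA and 16.66 in total RNA, and Tmem49, beside miR-21a, had an E of -0.23. Low values were thus not found at every locus or probe.

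Coding and noncoding classes differed over their whole range. For 14417 genes with a RefSeq mRNA accession the median E was 0.17, with 2070 genes (14.4%) at 1 or higher and 1035 (7.18%) at -1 or lower. For 295 RefSeq noncoding RNAs it was -0.37, with 6 genes at 1 or higher and 70 (23.7%) at -1 or lower. The 2944 intergenic (lincRNA) intervals had a median of -0.07 and were dim, with a median log2 intensity of 8.07 in total RNA, where the offset added to the background compresses E towards 0. Of the intervals 3.94% were at 1 or higher and 12.4% at -1 or lower. Of 20 listed nuclear noncoding RNAs, 19 passed, and 14 of them (73.7%) were at -1 or lower against 11.6% of all genes. The highest was Tsix, the antisense partner of Xist, at -0.26. The spliced snoRNA host genes, whose exons code for no protein and whose introns give snoRNAs, had a median of -2.44 over 8 of 10 members, between Gas5 at -3.32 and Snhg3 at -0.85.

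Genes of the silencing machinery itself were on the enriched side. All 9 Argonaute and silencing effector genes passed, with a median E of 0.83, and 4 of them (44.4%) were at 1 or higher against 10.8% of all genes. The 4 Argonaute genes, which carry their older names Eif2c1 to Eif2c4, were lower than the rest of the group apart from the helicase gene Ddx6. Eif2c1 had an E of 0.83, and its 2 probes had 0.77 and 0.90. In Ago–RNA and total RNA, Eif2c3 had 8.35 and 7.52, and Eif2c4 7.91 and 7.09. Eif2c2, the slicing Argonaute, had a mean E of 0.29 over 2 probes of its 3′ UTR that disagreed. The probe 4808 bases from the 3′ end had E of 1.46, and the one 3650 bases from it had -0.88. The GW182 proteins, which dock to Ago and recruit deadenylases, had higher values. Tnrc6b had 12.07 in Ago–RNA and 10.04 in total RNA, Tnrc6a had 13.16 and 12.06, and Tnrc6c had an E of 1.85. Mov10, an RNA helicase that associates with Ago, was at 15.86 and 14.01, an E of 1.85. Ddx6 was at 0.57.

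Of the 11 miRNA biogenesis genes, all of which passed, 7 (63.6%) were at 1 or higher against 10.8% of all genes, and the median was 1.08. Dicer1, which cuts precursors into mature miRNAs, had 14.27 in Ago–RNA and 12.22 in total RNA. Drosha, which releases the precursors in the nucleus, had 16.59 and 14.80, with E of 1.59 and 2.00 at its 2 probes. Its partner Dgcr8 was at 1.08 and the exporter Xpo5 at 1.77. The terminal uridylyltransferases Zcchc11 and Zcchc6 were at 1.05 and 1.00, Trim71 at 1.37, and the let-7 inhibitors Lin28a and Lin28b at 0.99 and 1.34. The Dicer cofactors were the exceptions. Tarbp2 had 15.91 in Ago–RNA and 15.73 in total RNA, and Prkra had 9.98 and 10.92, an E of -0.94.

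The pluripotency factors lay on both sides, in shares near those of all genes. All 22 passed, with a median of 0.49, 4 at 1 or higher (18.2% against 10.8%) and 3 at -1 or lower (13.6% against 11.6%). Among the transcription factors of the core network, Pou5f1 had 15.74 in Ago–RNA and 15.21 in total RNA, Sox2 14.08 and 13.75, and Nanog 12.29 and 12.51. Nanog thus lay below the median gene at both of its probes, with E of -0.32 and -0.13. Most other transcription factors were higher. Klf5 was at 1.42, Klf2 at 1.03, Nr0b1 at 1.02, Nr5a2 at 0.87, Tbx3 at 0.82, Esrrb at 0.80, Klf4 at 0.65, Sall4 at 0.63, Zfp42 at 0.45 and Prdm14 at -0.07. Utf1, a chromatin factor of ES cells, was at 1.18, Fbxo15 at 0.82 and Fgf4, the autocrine growth factor, at 0.30. Lowest in the group was Tdgf1. It encodes a Nodal co-receptor and had 12.05 in Ago–RNA and 13.31 in total RNA, with all 3 probes between -1.99 and -0.86. Dppa3 was at -1.12, the Akt coactivator Tcl1 at -1.08, Dppa2 at -0.84, Dppa5a at -0.53 and Dppa4 at -0.36.

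**Figure D2:**
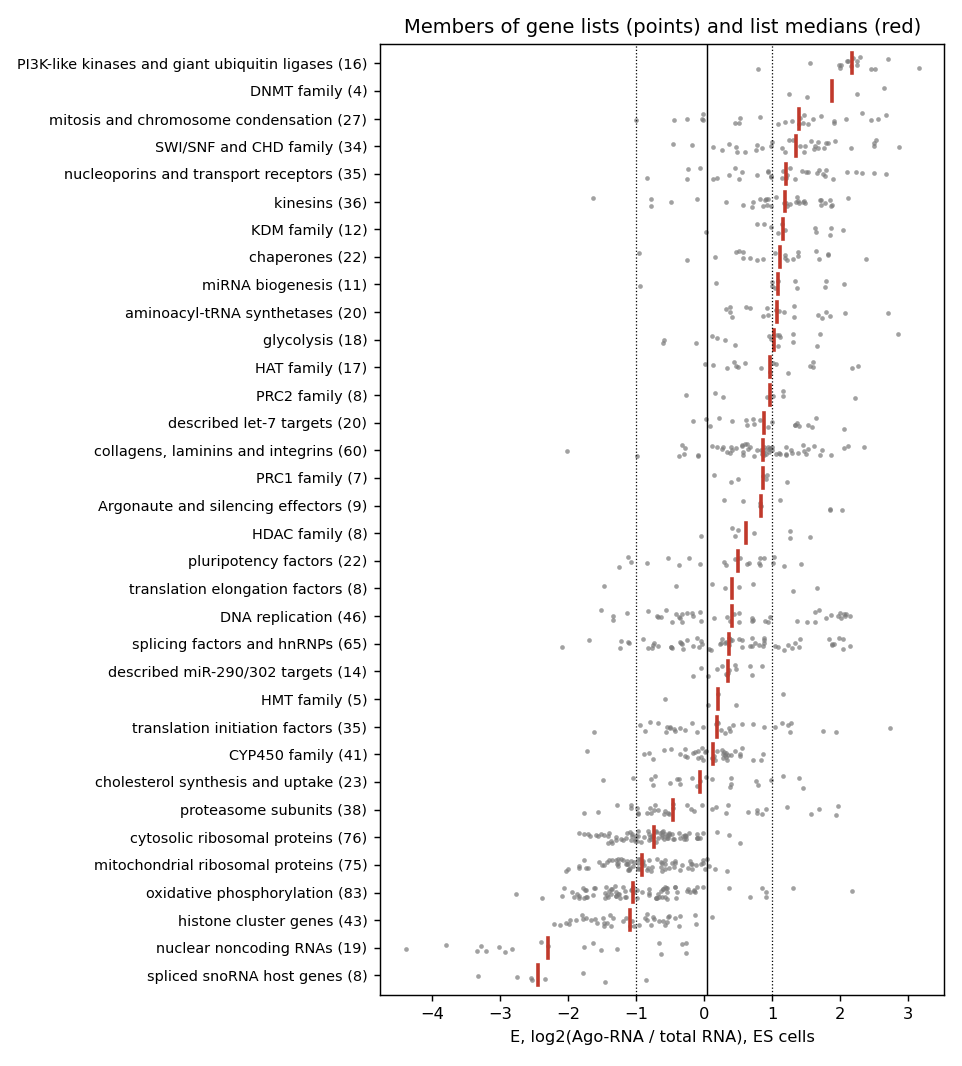
Ago enrichment (E, horizontal axis) of the passing members of each gene list (gray points, number of genes in parentheses) with the list median as a red bar, ordered by median. The solid line marks the median of all genes, 0.04, and the dotted lines E of 1 and -1. Medians run from -2.44 for the snoRNA host genes to 2.17 for the PI3K-like kinases and giant ubiquitin ligases.

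Housekeeping complexes made of small subunits were depleted (the plot of gene lists). All 76 cytosolic ribosomal protein genes on the array passed, and only 3 of them were above 0. Their median was -0.73, and 26 of them (34.2%) were at -1 or lower against 11.6% of all genes. They were bright, with a median log2 intensity of 17.70 in total RNA, and E was lower among bright genes. Of the 2246 genes brightest in total RNA, at 14.63 or more, 29.9% were at -1 or lower, with a median of -0.46. Among the ribosomal protein genes Rps15a was the lowest, with 12.75 in Ago–RNA and 14.59 in total RNA. Rpl3, one of the longest, was the highest, with 18.78 and 18.25. These genes have many pseudogenes, so that probes may share signal with near-identical copies. Mitochondrial ribosomal protein genes had a median of -0.92 over 75 genes, from Mrpl54 at -2.03 to Mrps27 at 0.34. Histone cluster genes had a median of -1.10 over 43 genes, with Hist1h1b, a linker histone, at -2.21 and Hist1h2be at 0.12. Histone copies are near-identical as well, and most histone mRNAs lack a poly(A) tail.

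Oxidative phosphorylation genes showed how far members of 1 complex could differ. Of 85 genes, 83 passed, with a median of -1.04 and 43 (51.8%) at -1 or lower against 11.6% of all genes. Their median intensity in total RNA was 15.49, and the share at -1 or lower was 29.9% among the 2246 genes brightest there. Atp5e, the smallest subunit of the ATP synthase catalytic part, had 13.65 in Ago–RNA and 16.42 in total RNA. Only 7 of the 83 were above 0, and they encode the large catalytic or core subunits. Ndufs1 of complex I had 17.66 and 15.49, an E of 2.18. Atp5a1 was at 1.30 and Atp5b at 0.67, which form the catalytic head of the ATP synthase. Sdha of complex II and Uqcrc1 of complex III were both at 0.91, Ndufv1 was at 0.86 and Cyc1 at 0.36. The proteasome was split in a like way. Its 38 measured genes had a median of -0.46, with the 20S core subunit Psmb1 lowest at -1.76 and the large base subunit Psmd2 highest at 1.96. Psmd1 was at 1.69 and Psmd3 at 1.94.

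Protein synthesis and folding enzymes, in contrast to the ribosome, were enriched. All 20 aminoacyl-tRNA synthetase genes, whose enzymes load tRNAs with amino acids, were above 0, and 11 (55.0%) were at 1 or higher against 10.8% of all genes. Their median was 1.08. Lars, the leucyl-tRNA synthetase, had 17.87 in Ago–RNA and 15.16 in total RNA, Iars 16.65 and 14.58, and Wars, the lowest, 13.87 and 13.55. Of 22 chaperone genes, 12 (54.5%) were at 1 or higher against 10.8%, with Hsph1 at 2.38, Hspa9 at 1.83, Cct8 at 1.82 and Hspa5 at 1.69, while Hspe1, the small partner of mitochondrial Hsp60, was at -0.96. Glycolysis genes had a median of 1.02, with 9 of 18 (50.0%) at 1 or higher against 10.8% of all genes. Hk2 led with 2.86, followed by Pfkm at 1.71 and Pkm2 at 1.66, and Aldoc was lowest at -0.61. Translation initiation factors were spread from Eif3i, with 13.06 in Ago–RNA and 14.68 in total RNA, to the scaffold Eif4g1, with 18.47 and 15.74, around a median of 0.19. The list of elongation factors had a median of 0.41 over 8 genes, from Eef1e1 at -1.47 to Pabpc1, the poly(A)-binding protein, at 1.66. Neither of these ends is itself an elongation factor. These last 2 medians change sign relative to the median gene when the processed signal is scaled to the 75th percentile, and the second also without quantile normalization.

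Replication and mitosis genes held some of the most enriched mRNAs. The 46 DNA replication genes had a median of 0.41, with 14 (30.4%) at 1 or higher against 10.8% of all genes and 4 (8.70%) at -1 or lower against 11.6%. The replicative helicase genes Mcm2 to Mcm7 were all high, between Mcm5 at 1.51 and Mcm3 and Mcm4, both at 2.06. The GINS complex, which joins that helicase, was not, with Gins1 at -0.35, Gins4 at -0.56, Gins3 at -1.34 and Gins2, the lowest of the list, at -1.52. The topoisomerase gene Top2a was highest with 16.44 in Ago–RNA and 14.30 in total RNA. Among polymerase subunits, the catalytic Pold1 and Pola1 were at 2.01 and 1.69, and the catalytic Pole at 0.71 with 3 probes that disagreed between -1.17 and 2.14. Of the accessory subunits, Pola2 was at 0.71, Pole2 at 0.15, Pold2 at -0.16, Pold3 at -0.18, Pole4 at -0.32 and Pole3 at -1.35. Of 27 genes of mitosis and chromosome condensation, 17 (63.0%) were at 1 or higher against 10.8% of all genes. Numa1 was at 2.67. The condensin genes differed, with Ncaph at 2.56, Ncapd2 at 2.32, Ncapd3 at 1.46, Smc2 at 1.08, Ncapg at 0.82 and Smc4 at -0.01, while Birc5, or survivin, had 13.89 in Ago–RNA and 14.90 in total RNA. Nucleoporins and transport receptors had a median of 1.20, from Nup43 at -0.85 to Nup133 at 2.68. Kinesin genes had one of 1.19 over 36 of 41 members, from Kif12 at -1.64 to Kif7 at 2.11.

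The highest list was that of PI3K-like kinases and giant ubiquitin ligases. All 16 were above 0 and 15 (93.8%) were at 1 or higher, with a median of 2.17. The share was 10.8% among all genes and 56.9% among the 1450 genes with the longest coding sequences. Besides Huwe1 they included the ligase Ubr4 with 14.29 in Ago–RNA and 11.59 in total RNA, the deubiquitinase Usp9x with 14.02 and 11.51, and the kinases Mtor, Prkdc and Atm with E of 2.10, 2.15 and 2.01. Herc2 was lowest at 0.79. Chromatin regulators were grouped by family as in the study's supplementary list. They had medians of 1.88 for DNMT (4 genes, Dnmt3a lowest at 1.25 and Dnmt1 highest at 2.65), 1.36 for SWI/SNF and CHD (34 genes, Smarce1 at -0.46 to Chd4 at 2.86) and 1.16 for KDM. The KDM family ran from Kdm5b, whose 4 probes disagreed from -3.13 to 2.51 and averaged 0.03, to Kdm3b at 2.03. HAT and PRC2 genes both had 0.97. In the first, Myst1 was lowest at 0.02 and Mgea5 highest at 2.27, and in the second Set was at -0.27 and Jarid2 at 2.22. PRC1 genes had 0.86 (Cbx7 at 0.14, Cbx6 at 1.22), HDAC genes 0.62 (Hdac3 at -0.05, Hdac4 at 1.56) and HMT genes 0.20 (Prmt1 at -0.58, Prmt5 at 1.15). The CYP450 genes, of which 41 of 81 passed, were near the median gene at 0.13, between Cyp2r1 at -1.73 and Cyp1b1 at 0.86, and were just below it without quantile normalization.

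Other lists were nearer the middle. Splicing factors and hnRNPs ran from the small Sm protein gene Snrpf at -2.08 to Prpf6 at 2.15, with a median of 0.37 over 65 genes. Zfp-named zinc finger genes had a median of 0.41 over 315 genes, from Zfp740 at -1.80 to Zfp710 at 1.98. Cholesterol genes had -0.05, which turned to just above the median gene without quantile normalization, and ran from Ebp at -1.49 to Hmgcs1 at 1.45. The list of collagens, laminins and integrins had 0.87, from Itgb3bp at -2.02 to Lamc1 at 2.35. Itgb3bp encodes an integrin-binding protein and not an integrin, and no other member was at -1 or lower. Of 1076 olfactory receptor names, 108 passed. They had a median of 0.11, between Olfr224 at -1.88 and Olfr212 at 1.87, and were dim in total RNA, with a median of 7.37. Their median lay below that of all genes without quantile normalization, with the processed signal at the 75th percentile and among bright probes. The marker lists of other cells and of primed epiblast held more genes here than in the check of cell type. In them Nes reached 2.01, Dab2 1.11, Col1a1 1.11 and Cdx2 0.93. Dnmt3b, counted with primed epiblast, reached 2.24, but its probes were bright in these ES cells, at 15.58 to 17.46 in total RNA. The lowest of these lists were Thy1 at -1.31, Krt18 at -0.98, Tubb3 at -0.69, Fgf5 at -0.45 and Sox17 at 0.04. The neural list lay below the median gene without the filter on dim probes, and the fibroblast list among bright probes alone. Among the brightest names in total RNA, 4 were near the middle, with E of -0.45 for Rps14, -0.65 for Rpl41, -0.04 for the unnamed transcript NAP111752-1 and 0.04 for Exosc2. Brightness depends on the probe and does not rank their amounts.

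Ago enrichment followed the length of the mRNA. Transcript lengths were available for 14500 of the genes (92.0% of those with a RefSeq mRNA accession), from the match of probe sequences to annotated coding transcripts. Across these genes Spearman's rho of E was 0.62 with coding length, 0.29 with 3′ UTR length and -0.06 with GC content, given here as descriptions since genes are not independent replicates. In the shortest of 10 groups of equal size by coding sequence, of 75 to 453 bases, the median E was -0.53, and 28.5% of genes were at -1 or lower while 1.72% were at 1 or higher. In the longest, of 3306 bases or more, it was 1.10, with 0.828% at -1 or lower and 56.9% at 1 or higher. The median was higher in each group than in the one before it.

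**Figure D3:**
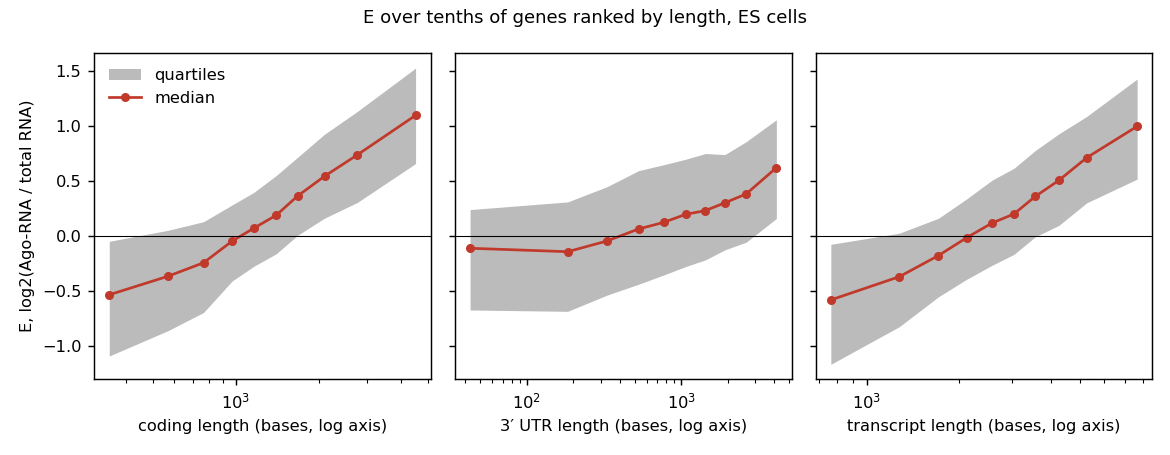
Median E (red points) and quartiles (gray band) over 10 equal groups of genes ranked by coding length, 3′ UTR length or transcript length, each placed at its median length in bases on a log axis. The median rises from -0.53 to 1.10 over coding length and from -0.11 to 0.62 over 3′ UTR length.

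Genes were also split into short, middle and long by coding and by 3′ UTR length at once. Among genes with a short coding sequence, the median E was -0.53 with a short 3′ UTR and -0.07 with a long one. Among those with a long coding sequence it was 0.57 and 0.85. E thus differed more with coding length than with 3′ UTR length. The relation was present at all intensities, since rho with transcript length was between 0.49 and 0.67 within the 5 groups of total RNA intensity. Within lists it varied. With coding length it was 0.83 among the DNA replication genes, 0.83 among aminoacyl-tRNA synthetases, 0.74 among mitochondrial ribosomal proteins and 0.71 among splicing factors, but 0.02 among histone genes and -0.01 among the giant kinases and ligases.

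Some lists differed from genes of the same transcript length. Genes were placed in 20 bins of transcript length, and each was compared with the median of its bin. Of the PI3K-like kinases and giant ligases 15 of 16 lay above it, by a median of 1.05. Of the aminoacyl-tRNA synthetases 20 of 20 lay above it, by a median of 0.92, and of the chaperones 20 of 21, by 0.93. The dim olfactory receptor genes were above in 92 of 99 cases, by 0.59. The glycolysis genes were above by 0.65, the mitosis genes by 0.64 and the SWI/SNF and CHD genes by 0.55. The miRNA biogenesis genes were above in 10 of 11 cases, by 0.54, while the Argonaute and silencing effectors were not, with 3 of 9 above and a median of -0.06. Below their bins lay histone genes by a median of -0.68, mitochondrial ribosomal proteins by -0.60, oxidative phosphorylation by -0.52 and cytosolic ribosomal proteins by -0.25. Of the 39 DNA replication genes with a length, 19 were above their bins. The median E of these 39 was 0.15, against 0.41 for all 46. Members without a length included Rrm1 at 2.09, Lig1 at 2.00 and Mcm2 at 1.86, and of them only Pole4, at -0.32, was below 0. These bins were not matched for coding length. The olfactory receptor genes had a median of 945 coding bases and a median E of 0.12. All genes of 879 to 1065 coding bases had a median E of -0.04. The synthetases had a median of 2076 coding bases and a median E of 1.08, against 0.54 for genes of 1863 to 2373.

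Probe position was examined because arrays read each RNA at a few points. In 2577 transcripts with probes at least 200 bases apart, E of the probe farthest from the 3′ end was compared with that of the nearest. The median difference was -0.12 with quartiles of -0.47 and 0.20, and the far probe was higher in 40.4% of transcripts. In the 466 transcripts with the closest pairs the median was 0.01, and in the 840 with probes over 2000 bases apart it was -0.26. Ago–RNA was therefore measured slightly lower, relative to total RNA, towards the 5′ end of a transcript. With only the 11740 probes within 600 bases of the 3′ end, rho of E with transcript length was 0.66. The median E went from -0.55 in the shortest of 5 groups of transcripts to 0.95 in the longest.

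**Figure D4:**
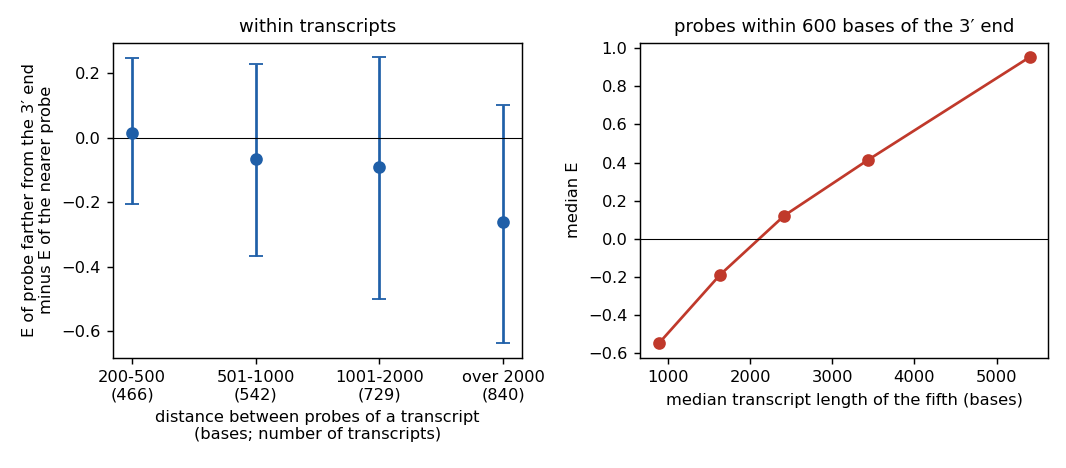
Left, the difference in E between the farthest and the nearest probe to the 3′ end of the same transcript (median with quartile bars), by the distance between them, with numbers of transcripts in parentheses. Right, the median E of probes within 600 bases of the 3′ end by 5 groups of transcript length, from -0.55 to 0.95.

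The next comparison asked whether genes with a site for ES cell miRNAs were more enriched. Sites were exact matches, on the transcript strand, to the complement of bases 2 to 8 in the 3′ UTRs of 13719 genes with at least 50 bases of 3′ UTR. The word AGCACTT, for the miR-290 and miR-302 seed, was in 15.4% of these 3′ UTRs. GCACTTT, for miR-17, miR-20a, miR-106a and miR-93, was in those of 1789 genes and overlaps the former in 6 letters. GTGCAAT (miR-92a) was in 6.76%, ATAAGCT (miR-21a) in 6.71%, CTACCTC (let-7a) in 9.71% and ACCAAAG (miR-9) in 12.5%. The last 2 miRNAs are known from differentiated cells. Other differentiated-cell miRNAs, miR-124-3p, miR-122-5p, miR-1a-3p and miR-133a-3p, were not examined.

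Genes with a word had a higher median E for each of the 6, by 0.23 for the miR-290 and miR-302 seed, 0.33 for miR-17, 0.37 for miR-92a, 0.28 for miR-21a, 0.16 for let-7a and 0.27 for miR-9. They also had longer 3′ UTRs, with a median of 2244.5 against 828 bases for the miR-290 and miR-302 seed, so the comparison was repeated within 5 groups of 3′ UTR length. The mean difference was then 0.18 for miR-17, between 0.10 and 0.31 over the groups, and 0.13 for miR-92a, between -0.16 and 0.30. For the miR-290 and miR-302 seed it was 0.05, between 0.00 and 0.16. It was 0.04 for miR-21a, 0.01 for let-7a and 0.01 for miR-9, with both signs among the groups for each. The miR-17 word thus kept a difference of the same sign in all 5 groups, and the miR-290 and miR-302 seed word a smaller one.

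**Figure D5:**
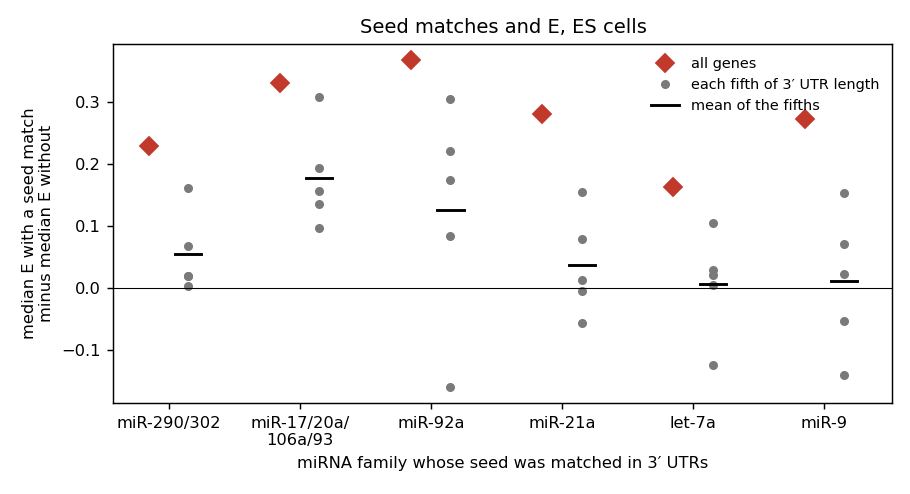
Difference in median E between genes with and without a seed match in the 3′ UTR for 6 miRNA families, over all genes (red diamonds), in each of 5 groups of 3′ UTR length (gray points) and as their mean (black bars). The mean falls from 0.33 to 0.18 for miR-17 and from 0.23 to 0.05 for the miR-290 and miR-302 seed.

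Genes described in the literature as targets of the miR-290 and miR-302 clusters were modestly above the median gene, and less so when compared with genes of the same transcript length, where 9 of 14 were above their bin by a median of 0.07. Of 15 such genes 14 passed, with a median E of 0.34. Of these, 0 were at 1 or higher and 0 at -1 or lower, against 10.8% and 11.6% of all genes. Among 14 genes such shares amount to very few. Their range was narrow, from Fbxl5 at -0.16 to Cdkn1a at 0.86. Cdkn1a, the p21 inhibitor of the cell cycle, had 10.79 in Ago–RNA and 9.93 in total RNA. Its 3′ UTR probe had E of 1.17 and its 5′ UTR probe 0.54. Lats2, a Hippo pathway kinase, had 9.27 and 8.57. Its probe in the 3′ UTR of the long transcript had E of 1.31, and its probe in the coding sequence of a short transcript 0.09. Rbl2, a retinoblastoma family repressor, had 8.36 and 7.68, Mbd2, a methyl-CpG binding protein, 11.05 and 10.59, and Pax6 8.70 and 8.23. Lefty1 and Lefty2, inhibitors of Nodal, were at 0.37 and 0.26, Rela at 0.36, Tgfbr2 at 0.33, Rhoc at 0.32, Nr2f2 at 0.19, Ei24 at 0.05 and Casp2 at -0.05. Dkk1 was well above background in Ago–RNA alone. By comparison, the 20 described let-7 targets, of which 8 (40.0%) were at 1 or higher against 10.8% of all genes, had a median of 0.88, from Nras at -0.17 to Dicer1 at 2.05, and 13 of the 17 with a length were above their bin, by a median of 0.54. The let-7 list shared Dicer1, Lin28a, Lin28b and Trim71 with the miRNA biogenesis list and Sall4 with the pluripotency factors, so these lists are not separate.

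The first AGCACTT word in the 3′ UTR, with its flanks in mm9, is given for the 3 such targets with the highest and the 2 with the lowest E, to let the sites be compared with the seeds above. The capitals mark the word, and each stretch matched the genome.
Cdkn1a (E of 0.86, chr17:29236761-29236785, plus strand): tcagacctgaatAGCACTTtggaaa
Lats2 (E of 0.70, chr14:58309918-58309942, minus strand): cagtatggaaagAGCACTTattttg
Rbl2 (E of 0.68, chr8:93647717-93647741, plus strand): atttttcaataaAGCACTTataaat
Casp2 (E of -0.05, chr6:42231545-42231569, plus strand): atataacctagaAGCACTTgtctct
Fbxl5 (E of -0.16, chr5:44148905-44148929, minus strand): atgattaaaggcAGCACTTactgct
Cdkn1a and Lats2 each held 2 such words in their 3′ UTR, and the other 3 genes 1 each. A word is a match of letters and not a measured binding site.

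Probes outside these comparisons were those seen on 1 array alone. Another 2740 probes were well above background in Ago–RNA and in no spot of the total RNA array, and 2451 the reverse. For RefSeq mRNA probes the split was 1140 against 339, whereas for lincRNA intervals it was 1011 against 1373. All were dim, and few allowed a bound. Among RefSeq mRNA genes seen in Ago–RNA alone, Oas1h was at least 4.17-fold higher there, Kctd7 at least 3.85-fold, Olfr1141 at least 3.46-fold, Htr7 at least 3.08-fold and 4930544O15Rik at least 2.93-fold. Among those seen in total RNA alone, Strc was at least 4.28-fold higher there, D830031N03Rik at least 4.12-fold, Eid3 at least 4.02-fold, Stxbp5l at least 3.88-fold and Speer4b at least 3.28-fold. A bound sets the bright probe against the dim one, or against the lowest signal counted as above background on that array where this was higher.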

How the data were processed

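Agilent one-color arrays (SurePrint G3 Mouse) were used. The authors deposited spot intensity from Agilent Feature Extraction (9.1 according to the submitters' processing notes) that was not normalized between arrays. Background was corrected from the mean and local background signals (limma 3.58.1, R 4.3.3, normexp with 50 added). Irregular spots (125 on the Ago–RNA and 188 on the total RNA array of ES cells) and control spots were left out, and log2 values were quantile normalized over 8 arrays. Spots were averaged by probe and passing probes by gene name. According to the labels 50 ng of RNA was labeled. Python 3.11.15 with scipy 1.17.1 and pandas 2.3.3 gave the remaining values. Probe sequences were matched exactly to GENCODE coding transcripts of mm9, which placed 27520 probes, 26959 of them in a single gene. The longest matched transcript gave the lengths. The normalization was tested on simulated data. Genes were named by rule: the 10 highest and 10 lowest RefSeq genes, the extremes of each list, all silencing, biogenesis, pluripotency and described target genes of the miR-290 and miR-302 clusters, the 5 brightest, and the 5 highest bounds. Others beside them were chosen after their values were seen. The members and lists were chosen with earlier results of these data known. Alternatives were other offsets, processed signal, other scalings, filters and uses of probes. The number of arrays, 1 a side, limits the precision. None of the 8 arrays held a control immunoprecipitation, so nonspecific recovery could not be told apart from Ago binding. The list of mitochondrially encoded RNAs matched no gene name on the array. Some genes that this rule names are not reported here.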

Additional observations from a re-analysis of the deposited data

Results flagged for a closer look

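The E1A spike-in control spots, which no comparison of genes used, were dimmer on the Ago–RNA array of ES cells than on its total RNA array, with a median log2 ratio of -1.78 over the probes that were well above background on both. This was marked because the same control RNA is normally added to every sample in like amount, and it is given as a value. All 7 such probes were dimmer, the least different by a log2 ratio of -0.67. Their median log2 intensity was 10.97 on this array and between 12.07 and 13.07 on the other 7 arrays, while the upper quartile of all spots was highest on it. Its part in E was not tested.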

How the results depend on the processing

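No paired analysis was possible because each condition had 1 array, and leaving out a replicate was not possible for the same reason. Of 12 alternative settings, leaving out saturated spots could change nothing, since there were 0, and spike-in scaling equals median centring once values are taken relative to the median gene. Under the others, 14 gene lists whose median E was at least 1 from that of all genes kept their side, as did the 81 named genes at least 2-fold from it wherever they were measured. The median E of all genes, 0.04, was 2.66 when scaled by spike-in spots, -0.30 with each array's processed signal set to its 75th percentile and -0.26 without quantile normalization, and counts of genes past a fixed E moved with it. With spike-in scaling 21573 genes were at 1 or higher, 18028 at 2 or higher, 16 at -1 or lower and 0 at -2 or lower. With the 75th percentile 5392 were at -1 or lower and 1367 at -2 or lower, and without quantile normalization 3952 and 771. With the processed signal after quantile normalization 360 were at 2 or higher and 754 at -2 or lower. The correlation of E with transcript length was 0.60, and 0.49 without the filter on dim probes.

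The differences for seed words depended most on length. Within 5 groups of 3′ UTR length they were 0.055 for AGCACTT, 0.178 for GCACTTT, 0.125 for GTGCAAT, 0.037 for ATAAGCT, 0.0071 for CTACCTC and 0.011 for ACCAAAG. Within 9 groups of coding and 3′ UTR length, a setting added after seeing the data, they were 0.039, 0.153, 0.077, 0.064, -0.0045 and 0.052 in the same order, so that the sign turned for CTACCTC. Differences were wider with the 75th percentile, at 0.34 for AGCACTT, 0.45 for GCACTTT, 0.44 for GTGCAAT, 0.38 for ATAAGCT and 0.36 for ACCAAAG. Without quantile normalization, and likewise with spike-in scaling, they were 0.33 for AGCACTT and 0.42 for GCACTTT. Without the filter they were narrower, at 0.25 for GCACTTT, 0.26 for GTGCAAT, 0.17 for ATAAGCT and 0.18 for ACCAAAG. The cause was not tested. Signal over background limits what dim probes can show.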
